A study of Mus musculus with 17 samples.

Results

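CXCR3 is a chemokine receptor of lymphocytes, and Cxcl9, Cxcl10 and Cxcl11 encode its chemokine ligands. The 3 ligand genes and the receptor gene Cxcr3 were read by symbol from a table of 45777 genes, of which they make up 4. All 4 were chosen by their measured rise, in level and fold change, from non-irradiated to irradiated lung in these data. RNA-seq was performed on lungs of wild-type male C57BL/6 mice that arrived at an age of 6 weeks and were acclimatised for 1 week. A single focal fraction of 65 or 75 Gy was given to the left lung and RNA was taken from the lesion after 2 or 6 weeks, while control lungs of the same times were non-irradiated. Each of the 6 groups held 3 libraries, except for 65 Gy at 6 weeks with 2. The labels do not say whether the libraries of a group came from separate animals, so that p-values measure the spread between these libraries, which may be technical. A library is one bulk piece of tissue, in which more cells of a type and more RNA per cell cannot be told apart.

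CXCR3 is carried mainly by activated T cells and by natural killer cells, which it guides toward its ligands. The ligands belong to the CXC chemokines without the ELR motif and are named for their induction by interferon-gamma, with macrophages, dendritic cells, endothelium and epithelium among their sources. Cxcl9 depends most strictly on interferon-gamma, while Cxcl10 also responds to type I interferon, TNF and NF-kB. In the irradiated lung this axis is studied because lymphocyte recruitment accompanies the inflammation that comes before fibrosis.

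In GRCm38.p6, the 3 ligand genes lie in one row on the minus strand of chromosome 5, over 42.0 kb. Cxcl9 (GeneID 17329) is at chr5:92321331-92328079, Cxcl10 (GeneID 15945) at chr5:92346638-92348889 and Cxcl11 (GeneID 56066) at chr5:92359544-92363296. Cxcr3 (GeneID 12766) is at chrX:101731535-101734147, also on the minus strand. Cxcl11 is listed as a transcribed pseudogene in the deposited table, and its annotated exons are parted at one place by a gap of 2 bases. As background, C57BL/6 mice are known to carry a frameshift in Cxcl11 that prevents the protein, so that its counts report transcript and not chemokine. Cxcl10 and Cxcl11 lie inside the span of Art3, a gene of the plus strand at chr5:92331799-92414628, and 1 annotated Art3 exon overlaps an exon of Cxcl10. The library kit keeps strand, but whether the counting used it is not given in the sources used here. Art3 ranged from 11 to 25.2 CPM (counts scaled to library size) over the 17 libraries and was not called at either dose or time, with log2 fold changes between -0.53 and 0.06.

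The 250 bases before the transcription start of Cxcl9 and Cxcl10 are shown because transcription factors that act on both genes can bind there. They were taken from RefSeq in the orientation of the gene, with matches to 3 motifs in capitals. The motifs, searched on both strands, were the ISRE core GAAANNGAAA, the GAS core TTCNNNGAA and the NF-kB consensus. No match overlapped another.
Cxcl9, chr5:92328080-92328329, minus strand: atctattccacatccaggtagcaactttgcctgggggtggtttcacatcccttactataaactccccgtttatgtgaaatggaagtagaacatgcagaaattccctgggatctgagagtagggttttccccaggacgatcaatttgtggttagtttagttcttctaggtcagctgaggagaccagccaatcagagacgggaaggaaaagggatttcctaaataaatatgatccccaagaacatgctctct
Cxcl10, chr5:92348890-92349139, minus strand: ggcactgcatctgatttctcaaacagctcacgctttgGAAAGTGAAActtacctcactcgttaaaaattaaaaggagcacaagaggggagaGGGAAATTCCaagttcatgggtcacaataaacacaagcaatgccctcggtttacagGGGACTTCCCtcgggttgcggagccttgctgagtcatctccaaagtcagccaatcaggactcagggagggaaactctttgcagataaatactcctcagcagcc
The Cxcl10 window held 1 ISRE match, GAAAGTGAAA, at 213 to 204 bases before the start. It also held 2 NF-kB matches, GGGAAATTCC at 159 to 150 and GGGACTTCCC at 103 to 94 bases before the start. None of the 3 motifs was found in the Cxcl9 window or in the window of the same length before Cxcr3, which says no more than that these letters are not there. Of 32841 promoter windows of this length, 2.98% held the ISRE core, 7.02% the GAS core and 3.90% the NF-kB consensus. The sequence table matched 3 of the 4 genes, without an entry for Cxcl11.

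The libraries held 46764569 to 66797879 counts. Summed over 9 lung markers, the level ran from 20940 to 45850 CPM over the libraries, with the lowest value in library 3134. Summed over 4 heart muscle markers it was 202 to 267 CPM in controls and 46.2 to 185 CPM after 75 Gy at 2 weeks, and 95.1 to 458 and 327 to 506 CPM at 6 weeks, and the part of such tissue in the results was not tested. Library 3134, of 75 Gy at 2 weeks, stood apart: it was the highest of all libraries in the 4 genes described here and held 6025 CPM over the genes that interferon-gamma induces, against 2802 and 3170 CPM in the other libraries of its group. The values of 75 Gy at 2 weeks that moved most without it are given both ways.

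Cxcl9 was low in control lungs, at 27 to 35 reads in a library, and among the most raised genes in irradiated lungs at both times. At 2 weeks it stood at 0.609, 0.600 and 0.515 CPM in the control libraries. The 65 Gy libraries held 50.0, 15.5 and 17.2 CPM, and the 75 Gy libraries 25.6, 30.6 and 114.8 CPM. Each irradiated library thus exceeded each control, and the highest value in each dose group came from 1 library, 3129 at 65 Gy and 3134 at 75 Gy. At 6 weeks, Cxcl9 was at 0.551, 0.624 and 0.611 CPM in controls, at 27.5 and 19.5 CPM after 65 Gy, and at 13.0, 34.6 and 27.7 CPM after 75 Gy. Again no irradiated library overlapped the controls, whose 6 values at both times together spanned 0.515 to 0.624 CPM. The log2 fold change against controls was 5.58 (SE 0.70) for 65 Gy and 6.63 (SE 0.72) for 75 Gy at 2 weeks. At 6 weeks it was 5.30 (SE 0.70) and 5.39 (SE 0.68). Without library 3134 the 75 Gy value at 2 weeks was 5.61, and without library 3129 the 65 Gy value was 4.83. Ordered by log2 fold change over the 22052 genes tested, Cxcl9 was number 61 for 75 Gy and 161 for 65 Gy at 2 weeks. At 6 weeks it was number 193 and 164, in that order. Since Cxcl9 was chosen for its rise, nothing is read from these places.

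Cxcl10, the ligand with the broader set of inducers, took the same order of means over the irradiated groups, at a smaller fold. It was measured at 1.40, 1.09 and 0.591 CPM in the controls of 2 weeks. At 65 Gy it reached 39.1, 17.1 and 16.7 CPM and at 75 Gy 17.1, 21.9 and 67.6 CPM. The libraries highest in Cxcl9, 3129 and 3134, were also highest in Cxcl10, and no irradiated library overlapped the controls. At 6 weeks the controls held 0.778, 0.927 and 0.978 CPM, the 65 Gy libraries 11.9 and 8.94 CPM, and the 75 Gy libraries 9.53, 14.7 and 14.4 CPM. Every irradiated library of 6 weeks lay above the controls and below every irradiated library of 2 weeks. By dose, 13.6% of all genes tested were wholly lower at 6 than at 2 weeks after 75 Gy, and 19.1% after 65 Gy. The log2 fold change was 4.57 (SE 0.54) and 5.11 (SE 0.55) for 65 and 75 Gy at 2 weeks, and 3.54 (SE 0.55) and 3.84 (SE 0.53) at 6 weeks. Without library 3134, the 75 Gy value at 2 weeks was 4.25, below that of 65 Gy, while the order of Cxcl9 was kept.

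Cxcl11 transcripts were nearly absent from control lungs and rare in irradiated ones. The 2-week controls had 2, 0 and 0 reads, and the 6-week controls 0, 0 and 0. The 65 Gy libraries of 2 weeks held 36, 16 and 16 reads and the 75 Gy libraries 35, 12 and 69. At 6 weeks there were 8 and 15 reads after 65 Gy and 5, 11 and 7 after 75 Gy. Irradiated libraries did not overlap the controls. Those of 6 weeks lay below those of 2 weeks, apart from the 65 Gy library with 15 reads and the 75 Gy library of 2 weeks with 12. Against the 2 control reads of 2 weeks, the pooled level was 47.4 times higher after 75 Gy (95% interval 12.8 to 396) and 27.9 times higher after 65 Gy (7.42 to 235), intervals that cover counting error alone. The 75 Gy ratio without library 3134 was 27.95 (7.32 to 238). At 6 weeks there was no control read in 3 libraries. The control group was given 3 reads, about the upper 95% limit of a count of 0. On that setting the level was at least 7.79-fold higher after 75 Gy and at least 11.3-fold higher after 65 Gy. These limits allow for counting error in the controls alone, not in the irradiated reads, and leave out the spread between libraries. No fitted fold change is given for Cxcl11 against controls, since with so few reads it depends on the count added before the logarithm.

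The receptor changed by far less than its ligands. Cxcr3 was present in control lungs, at 3.29, 3.66 and 3.11 CPM at 2 weeks. It stood at 8.41, 5.80 and 5.09 CPM after 65 Gy and at 3.82, 7.12 and 11.1 CPM after 75 Gy. The groups did not overlap, although 75 Gy library 3132, at 3.82 CPM, was close to the highest control. At 6 weeks the controls held 2.71, 2.44 and 2.03 CPM, the 65 Gy libraries 7.22 and 4.97 CPM, and the 75 Gy libraries 4.81, 7.22 and 7.12 CPM, again without overlap. The log2 fold change was 0.94 (SE 0.31) and 1.13 (SE 0.31) for 65 and 75 Gy at 2 weeks, and 1.35 (SE 0.34) and 1.41 (SE 0.32) at 6 weeks. The 75 Gy value of 2 weeks was 0.71 without library 3134.

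**Figure D1:**
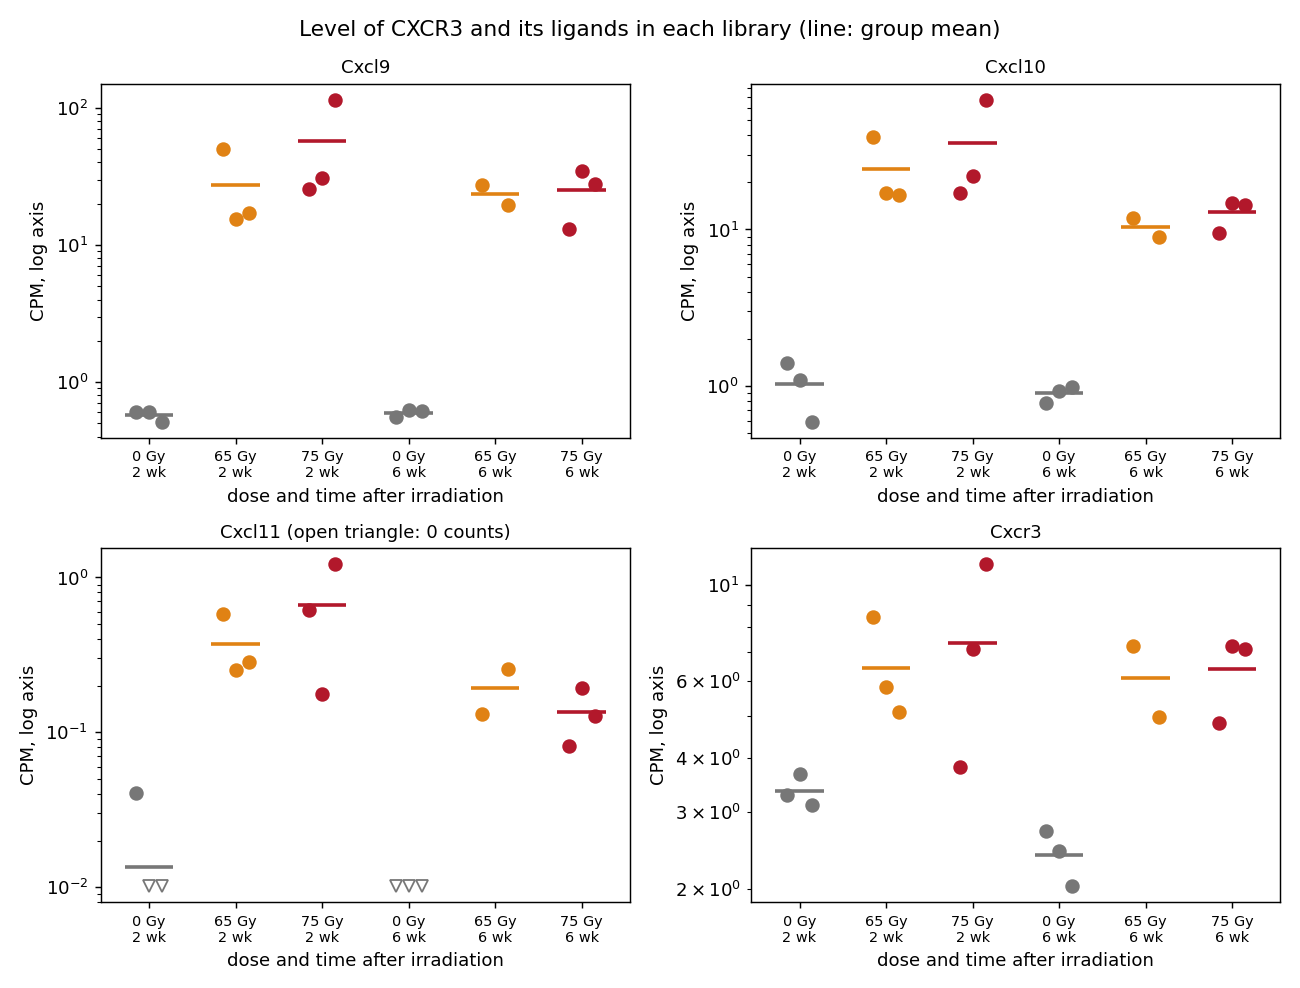
CPM (log axes) of Cxcl9, Cxcl10, Cxcl11 and Cxcr3 in each of the 17 libraries by dose and time, with a line at each group mean and open triangles for libraries with 0 counts. All irradiated libraries lie above the controls of their time for each gene, and the highest point of all 4 panels is 75 Gy library 3134 of 2 weeks.

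Calls required both an adjusted p no greater than 0.05 in the quasi-likelihood test of edgeR and a log2 fold change of 1 or more in either direction. By these limits 4 of the 4 genes were called higher after 75 Gy at 2 weeks, where 5.67% of all genes tested were. Without library 3134 Cxcr3, at 0.71, was under the fold limit there. At 65 Gy and 2 weeks 3 of 4 were called higher, all except Cxcr3, against 3.47% of all genes. At 6 weeks 4 of 4 were called higher at both doses, against 7.28% for 75 Gy and 4.34% for 65 Gy. All 4 genes were without overlap in each comparison, with every irradiated library above every control, as were 15.5% of genes for 75 Gy and 15.9% for 65 Gy at 2 weeks, and 29.4% and 28.2% at 6 weeks. Since the genes were chosen for these differences, nothing is read from the counts.

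**Figure D2:**
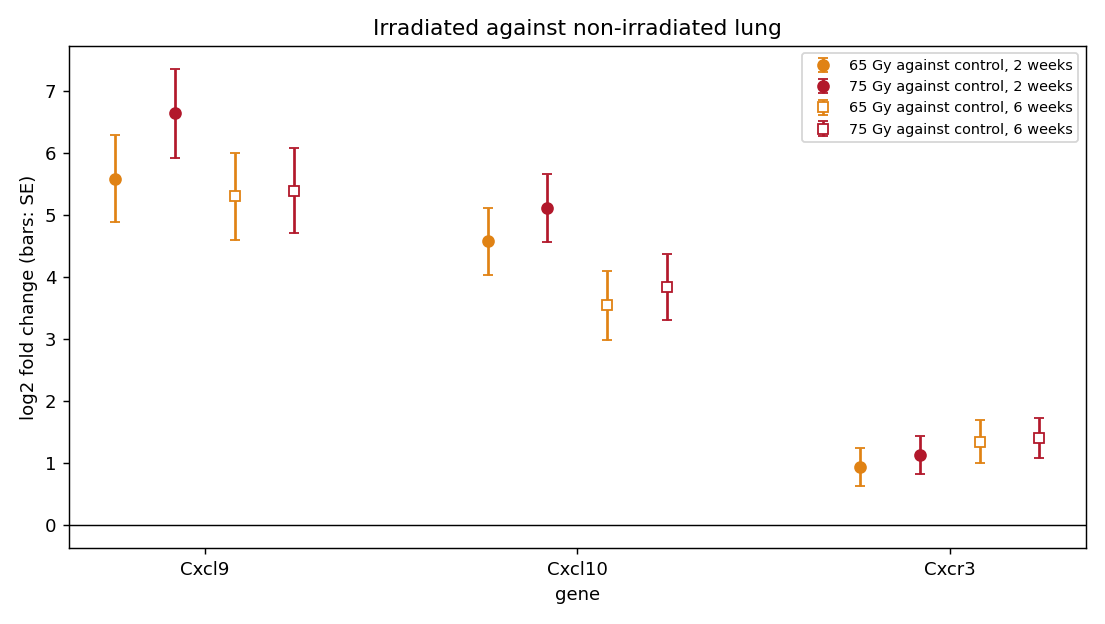
Log2 fold change of Cxcl9, Cxcl10 and Cxcr3 in irradiated against non-irradiated lung for each dose and time, with SE as bars. Cxcl9 lies between 5.30 and 6.63, Cxcl10 between 3.54 and 5.11 and Cxcr3 between 0.94 and 1.41, and Cxcl11 is left out because its controls had almost no reads.

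Levels of different genes were compared as CPM per kilobase of the RefSeq transcript (2889 bases for Cxcl9, 1094 for Cxcl10, 1581 for Cxcl11 and 1731 for Cxcr3). In the controls of 2 weeks, Cxcr3 was highest at 1.94 ± 0.163 CPM per kb (SD, n = 3), followed by Cxcl10 at 0.940 ± 0.374, Cxcl9 at 0.199 ± 0.0180 and Cxcl11 at 0.00856 ± 0.0148. These 4 levels did not overlap between neighbours. After 75 Gy at 2 weeks the order of the receptor and both main ligands was turned, with Cxcl10 at 32.5 ± 25.5 CPM per kb, Cxcl9 at 19.7 ± 17.3, Cxcr3 at 4.25 ± 2.12 and Cxcl11 at 0.422 ± 0.329. The ranges of Cxcl10 and Cxcl9 overlapped there between libraries, but Cxcl10 was the higher within each library. It was at 15.6, 20.0 and 61.8 CPM per kb against 8.875, 10.6 and 39.7 for Cxcl9. Without library 3134 the means were 17.8 CPM per kb for Cxcl10, 9.74 for Cxcl9, 3.16 for Cxcr3 and 0.25 for Cxcl11, in the same order, and the remaining 2 libraries did not overlap between Cxcl10 and Cxcl9. After 75 Gy at 6 weeks Cxcl10 was at 11.8 ± 2.65 CPM per kb and Cxcl9 at 8.69 ± 3.81, with Cxcr3 at 3.69 ± 0.789 and Cxcl11 at 0.0853 ± 0.0358. The ranges of Cxcl10 and Cxcl9 overlapped again, and Cxcl10 was again the higher within each library. It was at 8.71, 13.1 and 13.5 CPM per kb against 4.51, 9.595 and 12.0 for Cxcl9.

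Whether the dose changed the response was asked by comparing 75 with 65 Gy directly, a contrast that played no part in the choice of the genes. Cxcl9 was 1.05 higher on the log2 scale after 75 Gy at 2 weeks (95% interval -0.07 to 2.17, adjusted p = 0.693 in the quasi-likelihood test of edgeR). Cxcl10 differed by 0.55 (-0.39 to 1.48), Cxcl11 by 0.83 (-0.61 to 2.27) and Cxcr3 by 0.19 (-0.45 to 0.84). These differences rest on library 3134, without which they were 0.03 for Cxcl9, -0.32 for Cxcl10, 0.07 for Cxcl11 and -0.23 for Cxcr3. At 6 weeks the differences were 0.09 for Cxcl9 (-1.15 to 1.34), 0.31 for Cxcl10 (-0.76 to 1.37), -0.52 for Cxcl11 (-2.34 to 1.30) and 0.07 for Cxcr3 (-0.66 to 0.79). None of the 4 genes was called at either time or with both times joined, by edgeR or by any alternative. The intervals are wide, so that equal levels after both doses were not shown either. Over all genes 0% were called by edgeR's quasi-likelihood test at each time, with 1570 genes at an unadjusted p under 0.05 at 2 weeks and 1431 at 6 weeks. DESeq2 called 7 and 14 genes and edgeR's exact test 6 and 11. With both times joined, 0% were called by edgeR and 0 genes by DESeq2, with 2636 at an unadjusted p under 0.05 in edgeR.

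Between 2 and 6 weeks after irradiation Cxcl10 was the only one of the 4 genes called, after 75 Gy, and that call was marginal. After 75 Gy, Cxcl10 fell by 1.46 on the log2 scale (SE 0.45, adjusted p = 0.0492 in the quasi-likelihood test of edgeR) and all 3 libraries of 6 weeks were below all 3 of 2 weeks. In that contrast 0.834% of all genes were called lower and 13.6% were without overlap in that direction. The call was lost in 12 of 17 fits that left out 1 library, with the smallest change, -0.60 (adjusted p = 0.302, edgeR), without library 3134. It was also lost with upper-quartile factors (adjusted p = 0.0570, edgeR) and in a fit of the groups compared alone (adjusted p = 0.154, edgeR). Cxcl9 changed by -1.18 (SE 0.53, adjusted p = 0.165, edgeR) and Cxcl11 by -2.29 (SE 0.73, adjusted p = 0.0620, edgeR), and neither was called. For Cxcl11, DESeq2 and the exact test of edgeR gave adjusted p-values of 0.0251 and 0.0247. Cxcr3 changed by -0.21 (95% interval -0.85 to 0.44). These 3 changes were -0.17, -1.53 and 0.22, in that order, without library 3134.

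After 65 Gy none of the 4 genes was called between the times, where 0.340% of all genes were. Cxcl10 changed by -1.22 on the log2 scale (SE 0.51, adjusted p = 0.332 in the quasi-likelihood test of edgeR), Cxcl9 by -0.23 (SE 0.59), Cxcl11 by -0.94 (SE 0.81) and Cxcr3 by -0.08 (SE 0.34). In controls the change from 2 to 6 weeks was 0.05 for Cxcl9 (SE 0.79), -0.20 for Cxcl10 (SE 0.57) and -0.49 for Cxcr3 (SE 0.32), and 0.576% of all genes were called. The change of the 75 Gy effect from 2 to 6 weeks, each relative to its own controls, was -1.24 for Cxcl9 (SE 0.95, adjusted p = 0.532, edgeR), -1.27 for Cxcl10 (SE 0.72, adjusted p = 0.394, edgeR) and 0.28 for Cxcr3 (SE 0.44, adjusted p = 0.782, edgeR). Without library 3134 these were -0.22, -0.40 and 0.70. None was called, while 0.254% of all genes were, and at 65 Gy none of the 4 was called against 0.0136%. A weaker ligand response at 6 weeks was thus not shown by the test of the difference itself.

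The balance of both main ligands is described by the ratio of Cxcl9 to Cxcl10 counts, which does not depend on how libraries are scaled and was chosen after its values were seen. The ratio was 0.435, 0.549 and 0.871 in the 2-week controls and 0.708, 0.673 and 0.625 in the 6-week controls. At 2 weeks it was 1.28, 0.904 and 1.03 after 65 Gy and 1.5, 1.40 and 1.70 after 75 Gy. At 6 weeks it was 2.32 and 2.18 after 65 Gy and 1.37, 2.35 and 1.93 after 75 Gy. All irradiated libraries lay above all controls, though narrowly, with 0.904 in a 65 Gy library against 0.871 in a control. That the ratio was higher on average follows from the larger fold of Cxcl9. From 2 to 6 weeks it was 2.12 times higher at 65 Gy, without overlap but with 2 libraries at 6 weeks, and 1.20 times higher at 75 Gy, where the groups overlapped.

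**Figure D3:**
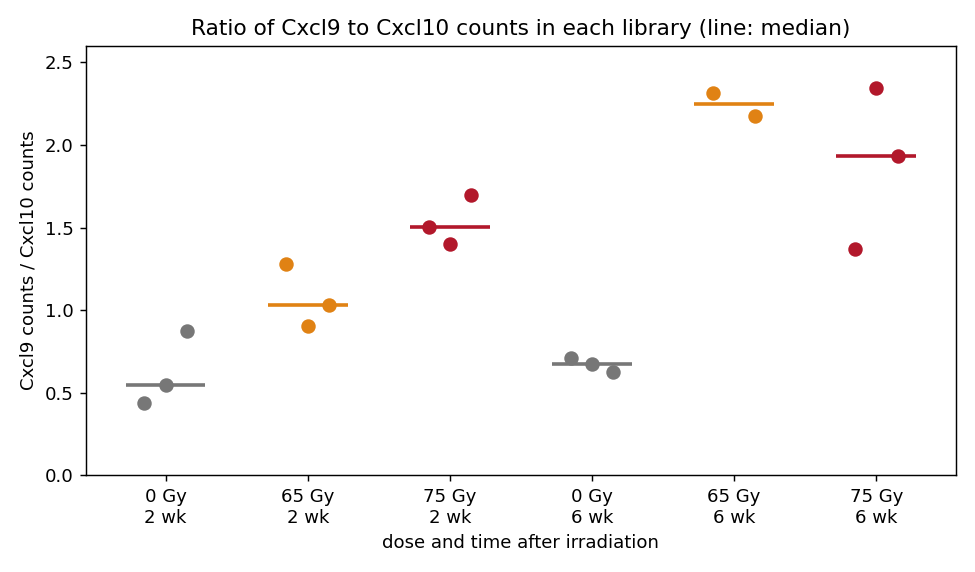
Ratio of Cxcl9 to Cxcl10 counts (linear axis) in each of the 17 libraries by dose and time, with a line at each group median. Control libraries lie between 0.435 and 0.871, irradiated libraries of 2 weeks between 0.904 and 1.70, and those of 6 weeks between 1.37 and 2.35.

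Interferon-gamma itself was scarce and did not pass the test. Ifng counts ran from 8 to 92 per library, and its log2 fold change was 1.23 (SE 0.46, adjusted p = 0.0666, edgeR) after 75 Gy and 0.56 (SE 0.46) after 65 Gy at 2 weeks. At 6 weeks it was 0.38 (SE 0.48) and 0.89 (SE 0.52), neither of which was called. Of 19 genes of interferon-gamma signalling, 5 were called higher after 75 Gy at 2 weeks, against 5.67% of all genes. Among them were the feedback inhibitor Socs1 (1.87, SE 0.42), the interleukin subunits Il12b (2.24, SE 0.30) and Ebi3 (1.11), and the receptor chain Il12rb1 (1.29). At 65 Gy and 2 weeks, and at both doses at 6 weeks, 1 of 19 was called higher, each time Il12b, a subunit of IL-12, which promotes interferon-gamma production, with log2 fold changes of 2.52, 2.95 and 2.25 in that order. A count of 1 is near the share of all genes called higher there, 3.47%, 7.28% and 4.34%. At 6 weeks the transcription factor gene Irf1 was within 0.20 of the controls on the log2 scale and was not called. The median log2 fold change of the list was 0.42 and 0.25 at 2 weeks for 75 and 65 Gy and 0.24 and 0.31 at 6 weeks, against -0.01 to 0.04 over all genes. Without library 3134, 2 genes of the list were called after 75 Gy at 2 weeks, and 1 in a fit of the groups compared alone.

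Cxcl9 was chosen for its rise, so nothing is read from its place beside other genes that interferon-gamma induces. Those genes had smaller fold changes than Cxcl9 after 75 Gy, with Ubd the nearest to it. Of 17, 11 were called higher after 75 Gy at 2 weeks (median log2 fold change 1.12), among them the immune checkpoint ligand Cd274 (1.88, SE 0.33) and the immunoproteasome subunit Psmb8 (1.16, SE 0.21). Without library 3134 the 11 became 1, and a fit of the groups compared alone also gave 1. At 65 Gy and 2 weeks 1 of 17 was called, Cd274. Over all genes tested, 5.67% were called higher after 75 Gy and 3.47% after 65 Gy at 2 weeks. The 1 of 17 after 65 Gy is near that share. At 6 weeks 3 of 17 were called higher after 75 Gy and 1 after 65 Gy, with medians of 0.38 and 0.45, against 7.28% and 4.34% of all genes. Ubd, a ubiquitin-like modifier, was called after 75 Gy at 2 weeks (4.01, SE 1.01) and at 6 weeks at both doses (5.01, SE 1.07, and 4.84, SE 1.11), and the invariant chain Cd74 after 75 Gy (1.16, SE 0.26). Of 16 tested genes of the type I interferon and TNF inputs, 4 were called higher after 75 Gy and 2 after 65 Gy at 2 weeks, and 1 at each dose at 6 weeks, where 1 is near the share of all genes. The 4 became 2 without library 3134. Tnf was higher after 75 Gy at 2 weeks (1.97, SE 0.24), as was Irf7 (1.86, SE 0.33), while Ifnb1 had at most 2 reads in a library and was not tested.

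**Figure D4:**
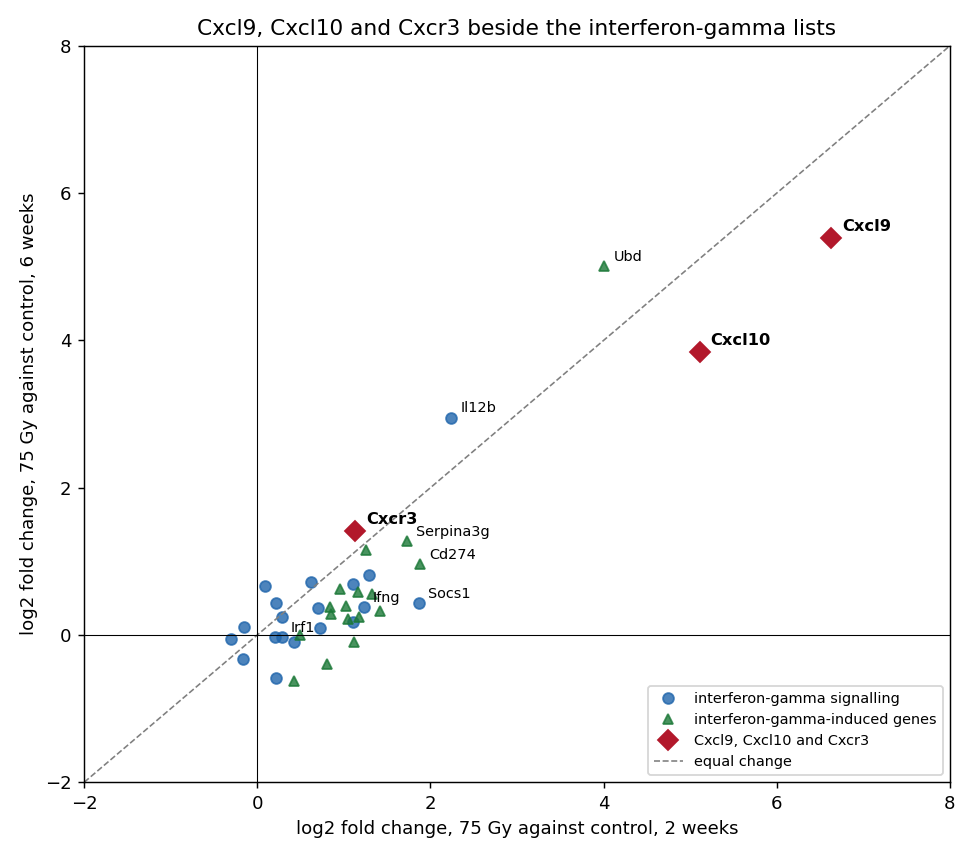
Log2 fold change after 75 Gy at 6 weeks (vertical) against that at 2 weeks (horizontal) for Cxcl9, Cxcl10 and Cxcr3 and for 2 lists of interferon-gamma genes, with a dashed line of equal change. Cxcl9 and Cxcl10 lie at 5.39 and 3.84 at 6 weeks, where Ifng lies at 0.38, and both times have their own controls.

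Among cells that carry CXCR3, T cell markers rose in part. Of 13, 2 were called higher after 75 Gy at 2 weeks (Cd6, 1.31, SE 0.28, and Cd5, 1.37, SE 0.30) and 3 at 6 weeks, with Cd4 at 1.17 (SE 0.25) and Cd3g at 1.04 (SE 0.23). Cd8a and Cd8b1 of the same list, named here after their values were seen, went the other way after 75 Gy at 6 weeks. Their means were 7.76 and 5.81 CPM, against 10.8 and 8.27 CPM in controls, and neither was called. At 65 Gy 3 were called at 6 weeks. At 2 weeks 0 were called there by edgeR's quasi-likelihood and exact tests and by DESeq2, with 3 at an unadjusted p under 0.05. The share of all genes called higher was 5.67% and 3.47% for 75 and 65 Gy at 2 weeks and 7.28% and 4.34% at 6 weeks, and without library 3134 the 2 of 75 Gy at 2 weeks became 1. The summed level of the list was 128 to 139 CPM in controls and 145 to 284 CPM in 75 Gy libraries at 2 weeks, and 122 to 174 against 168 to 196 CPM at 6 weeks. Of 13 natural killer and cytotoxic genes, 1 was called higher after 75 Gy at each time, near the share of all genes, and the perforin gene Prf1 was lower at 6 weeks (-1.17, SE 0.17). The chemokine Xcl1 was the one that was higher, by 2.88 (SE 0.48) at 2 weeks. The summed level of this list overlapped between irradiated and control groups at both times for 75 Gy. The part of these cells in the Cxcr3 values was not tested.

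Markers of cells that can make the ligands moved more. Of 14 monocyte and macrophage markers, 10 were called higher after 75 Gy and 9 after 65 Gy at 2 weeks, and 9 and 10 at 6 weeks. Over all genes, 5.67% and 3.47% were called higher for 75 and 65 Gy at 2 weeks, and 7.28% and 4.34% at 6 weeks. The 10 of 75 Gy at 2 weeks became 8 without library 3134. The complement gene C1qb was 3.42 (SE 0.26) and 3.48 (SE 0.26) higher after 75 Gy at 2 and 6 weeks. The summed level of the list was 534 to 665 CPM in controls and 1396 to 3118 CPM after 75 Gy at 2 weeks, with the highest value in library 3134. At 6 weeks it was 518 to 596 and 1485 to 1738 CPM. Of 8 dendritic cell markers, 4 and 6 were called higher after 75 Gy at 2 and 6 weeks, with Xcr1, which marks cross-presenting dendritic cells, at 1.82 (SE 0.25) and 1.94 (SE 0.26), and Cd209a at 2.31 (SE 0.21) at 6 weeks. The 4 of 2 weeks became 2 without library 3134. Of 6 plasmacytoid dendritic cell markers, 0 were called by edgeR at either dose or time, with 4 at an unadjusted p under 0.05 after 75 Gy and 2 after 65 Gy at each time. DESeq2 called 1 of them after 75 Gy at 2 weeks. The part of any of these cells in the ligand values was not tested.

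Genes that act on the ligands after secretion were mixed. Dpp4, the peptidase that trims the amino terminus of CXCR3 ligands, was at -0.80 (SE 0.12) after 75 Gy at 2 weeks and -0.53 (SE 0.12) at 6 weeks, which passed the adjusted p of edgeR but not the fold limit. Mmp9, a protease that can cleave CXC chemokines, was called lower in all 4 comparisons, from -2.36 to -1.68. The summed level of 4 neutrophil markers moved with it, at 234 to 506 CPM in controls against 61.4 to 98.9 after 65 Gy and 44.7 to 171 after 75 Gy at 2 weeks, and at 217 to 469 against 59.7 to 211 and 123 to 219 CPM at 6 weeks. Of the 4, 2 were called lower in each comparison except 65 Gy at 6 weeks, where 0 were called by edgeR's quasi-likelihood and exact tests and by DESeq2, with 2 at an unadjusted p under 0.05, and the 2 of 75 Gy at 2 weeks became 1 without library 3134. Over all genes, 2.07% and 0.88% were called lower for 75 and 65 Gy at 2 weeks, and 3.13% and 0.943% at 6 weeks. The part of neutrophils in the Mmp9 values was not tested. Ackr1, an atypical receptor that binds many inflammatory chemokines, was called higher at 6 weeks after 75 Gy (5.23, SE 0.78) and 65 Gy (4.73, SE 0.81), from a control level of at most 0.227 CPM. Ackr3 and Mmp8 were not called in any comparison. The same held for Pf4, itself a CXC chemokine, which is also counted among the 17 other CXC chemokines and receptors below. Of the 17 other CXC chemokines and receptors, 9 were called higher and 2 lower after 75 Gy at 2 weeks, and 9 and 1 at 6 weeks, with Cxcr6, a receptor of tissue T cells, at 1.20 (SE 0.25) and 2.19 (SE 0.26). Over all genes, 5.67% were called higher and 2.07% lower after 75 Gy at 2 weeks, and 7.28% and 3.13% at 6 weeks. The 11 calls of 2 weeks became 8 without library 3134. Among 6 genes beside the ligand cluster, 1 was called higher after 75 Gy at each time, against 5.67% and 7.28% of all genes. It was Naaa, at 1.10 and 1.03, far below Cxcl9 and Cxcl10, and without library 3134 it was not called at 2 weeks.

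The levels of ligands and receptor were set against each other over the 11 irradiated libraries, where Cxcl9 alone passed both measures with Cxcr3. For Cxcl9 and Cxcr3, Pearson's r of log2 CPM was 0.818 (permutation p = 0.00197, adjusted 0.00525 over 8 relations) and Spearman's rho was 0.818 (permutation p = 0.00314, adjusted 0.0244). Without the 2 libraries farthest from the median of Cxcl9, 3134 and 3141, r was 0.640 (permutation p = 0.0631), so that the relation at this threshold rests on them. Within groups of dose and time, r of the residuals was 0.882, with all 11 libraries kept, as for each residual r below. For Cxcl10 and Cxcr3, r was 0.710 (permutation p = 0.0129, adjusted 0.0172) and rho was 0.518 (permutation p = 0.107, adjusted 0.143). Without the 2 farthest libraries r was 0.199. The residual r was 0.911, over libraries that include those 2. Cxcl11 showed no relation with Cxcr3 that passed the test (r = 0.308, permutation p = 0.357, adjusted 0.357; rho = 0.155, permutation p = 0.655, adjusted 0.655), and r was -0.419 without the 2 farthest libraries. Library 3132 had a high Cxcl11 and the lowest Cxcr3 of the irradiated libraries.

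**Figure D5:**
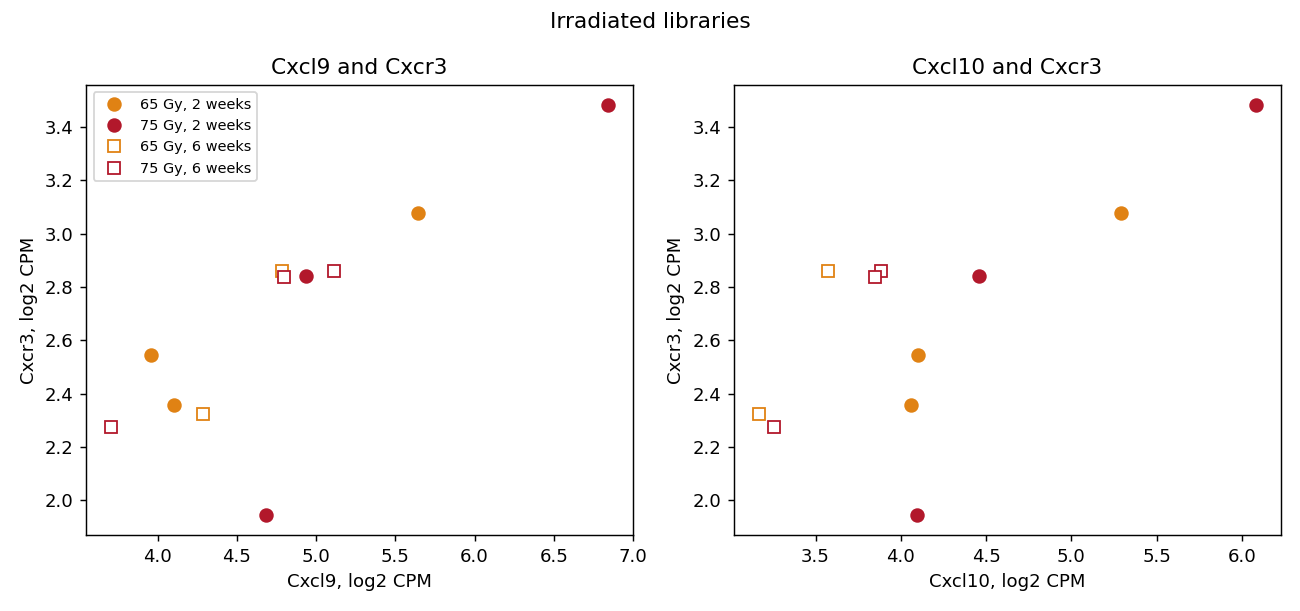
Log2 CPM of Cxcr3 (vertical) against that of Cxcl9 (left) and Cxcl10 (right) in the 11 irradiated libraries, by dose and time. The upper right point is 75 Gy library 3134, and for Cxcl10 the 5 libraries of 6 weeks lie to the left of the 6 libraries of 2 weeks.

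For Ifng, r was 0.813 with Cxcl9 (permutation p = 0.00529, adjusted 0.0106), 0.847 with Cxcl10 (permutation p = 0.0011, adjusted 0.005) and 0.717 with Cxcl11 (permutation p = 0.0126, adjusted 0.0172). The rho values were 0.591, 0.782 and 0.418 (permutation p = 0.0608, 0.00609 and 0.205, adjusted 0.114, 0.0244 and 0.234). Without the 2 farthest libraries, 3134 among them each time, r was 0.258, 0.665 and 0.0753, so that the relations of Cxcl9 and Cxcl11 with Ifng rest on those libraries, while that of Cxcl10 fell less (permutation p = 0.0507). Within groups the residual r was 0.840, 0.869 and 0.462. Cxcr3 followed the T cell gene Cd3e with r = 0.671 (permutation p = 0.0235, adjusted 0.0269) and rho = 0.618 (permutation p = 0.0469, adjusted 0.114), and r was 0.293 without the 2 farthest. Between Cxcl9 and Cxcl10 r was 0.859 (permutation p = 0.00125, adjusted 0.005) and rho 0.573 (permutation p = 0.0711, adjusted 0.114). That r was 0.587 (permutation p = 0.0916) without the 2 farthest libraries, and within groups the residual r was 0.976.

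The genes most like each of the 4 over the same 11 libraries, by Pearson's r across all genes tested, were different for each. For Cxcl9 they were Gm4841 (r = 0.971), Iigp1 (0.950), Gm10282 (0.949), Serpina3g (0.946) and Gbp2 (0.943), of which Iigp1 and Gbp2 encode interferon-inducible GTPases. For Cxcl10 they were Ercc6l (0.988), Ccne1 (0.985), Aldh18a1 (0.973), Slc25a3 (0.971) and Mcm3 (0.966), with cyclin E1 and a replication helicase subunit among their products. Those of Cxcl11 were Brip1 (0.972), Hmgn2 (0.957), Ncapg (0.957), Mrpl37 (0.946) and Ahcy (0.940). For Cxcr3 they were Sla2 (0.931), Gm8545 (0.914), the checkpoint receptor gene Lag3 (0.913), the T cell receptor segment Trav5-4 (0.909) and Tspan33 (0.904). These are descriptions of libraries that share library 3134, without which the values were between 0.839 and 0.973.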

How the data were processed

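RNA was sequenced from 17 mouse lung libraries in 6 groups of dose and time, assigned from the labels. Before deposit, the authors used Trimmomatic 0.38 for trimming, HISAT2 2.1.0 for alignment (GRCm38.p6, NCBI annotation release 108) and StringTie 2.1.3b for expression estimates. They deposited raw read counts per gene, and the step from StringTie to counts is not given in the sources used here. Totals ran from 46764569 to 66797879 counts, so that 1 read was 0.0148 to 0.0214 CPM.

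One edgeR 4.0.16 model in R 4.3.3 covered every library. Genes were kept by filterByExpr (minimum count 10, minimum total 15), which left 22052, and TMM factors scaled the libraries. The quasi-likelihood F test was used with Benjamini-Hochberg adjustment over all genes tested. SE is the absolute log2 fold change over the root of F. CPM used TMM factors, and correlations used log2 CPM (prior count 2) and 100000 permutations. Intervals are at 95%. Promoters and gene places are from RefSeq, GRCm38.p6, and transcript lengths from GENCODE vM21 models matched to the RefSeq transcripts. The calls of edgeR and DESeq2 against controls at 2 weeks were tried on simulated counts. These had the same spread for every gene and no outlying library, unlike the data here. The correlations and pooled Cxcl11 ratios were not simulated. The genes and lists were chosen with earlier results of these data known.

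Named genes were the 4 members, the genes of the interferon-gamma signalling and ligand trimming lists, neighbours of the cluster where a result turns on them, the 3 with the smallest p of other lists in the 75 Gy comparisons and the 5 most alike genes of each member. Stated exceptions apart, genes shown are a part of these, and 1 gene of the lists is not reported here by name. Alternatives were RLE and upper-quartile factors, other filters, DESeq2 1.42.0, edgeR's exact test, a fit of the groups compared, an adjusted p alone, a prior count of 0.5, residuals from group means and leaving out each library.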

Additional observations from a re-analysis of the deposited data

Results flagged for a closer look

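The 75 Gy effect on Cd209a, a dendritic cell marker, differed between the times, being 1.86 higher on the log2 scale at 6 weeks than at 2 weeks, each against its own controls (SE 0.29, adjusted p = 0.0125 in the quasi-likelihood test of edgeR). The 75 Gy effect on Marco, a macrophage scavenger receptor gene named here after its values were seen, differed the other way, at -2.35 on the log2 scale (SE 0.40, adjusted p = 0.0200 in the quasi-likelihood test of edgeR).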

How the results depend on the processing

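No paired analysis was possible because no library number recurs in another group. Groups of 2 or 3 libraries and few reads for Cxcl11 and Ifng limit the precision. Leaving out 1 library, the log2 fold change against controls ranged from 5.61 to 6.97 for Cxcl9 and 4.25 to 5.44 for Cxcl10 after 75 Gy at 2 weeks, and for Cxcl9 after 65 Gy from 4.83 to 5.87 at 2 weeks and 5.04 to 5.54 at 6 weeks. Fitted values of Cxcl11, which are no bounds, ranged from 4.65 to 8.28 (75 Gy) and 4.04 to 7.45 (65 Gy) at 2 weeks and from 5.62 to 6.21 and 5.94 to 6.89 at 6 weeks, where DESeq2 gave 5.41 and 5.95. The fall of Cxcl10 from 2 to 6 weeks after 75 Gy lost its call with upper-quartile factors (-1.41), in a fit of the groups compared (-1.46) and in 12 of the 17 fits without 1 library, which ranged from -1.79 to -0.60. That of Cxcl11 gained a call with DESeq2 (-2.33), with edgeR's exact test (-2.29) and without library 3133, in a range from -2.75 to -1.53. The cause was not tested.

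Called interferon-gamma signalling genes numbered 2 to 6 after 75 Gy and 1 to 2 after 65 Gy at 2 weeks without 1 library, and 1 after 75 Gy in the fit of the groups compared. By the adjusted p alone they were 2 (65 Gy, 2 weeks), 4 (75 Gy, 6 weeks) and 3 (65 Gy, 6 weeks). Called interferon-gamma-induced genes numbered 1 to 15 after 75 Gy and 0 to 1 after 65 Gy at 2 weeks, and 0 to 4 after 65 Gy at 6 weeks, without 1 library. They were 1 in the fit of the groups compared (75 Gy, 2 weeks), 3 and 5 by the adjusted p alone (65 Gy at 2 and 75 Gy at 6 weeks), and for 65 Gy at 6 weeks 5 in the fit of the groups compared and 2 with upper-quartile factors, both other filters, DESeq2 or the adjusted p alone.

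Without 1 library, r ranged from 0.476 to 0.839 (Cxcl10 with Cxcr3), -0.179 to 0.654 (Cxcl11 with Cxcr3), 0.548 to 0.897 (Cxcl9 with Ifng), 0.435 to 0.792 (Cxcl11 with Ifng) and 0.423 to 0.754 (Cxcr3 with Cd3e). With residuals from group means, r was 0.462 for Cxcl11 with Ifng and no longer passed.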
